A study of Bos taurus and Sus scrofa with 10 samples.

Results

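Splicing factor and hnRNP genes were followed through development before implantation in pig (Sus scrofa) and cow (Bos taurus). The set held every gene row whose symbol begins with SNRP, SF3A, SF3B, SRSF, HNRNP, U2AF or PRPF, leaving out SNRPN, an imprinted gene. In cow 62 of 22845 rows met this rule and in pig 49 of 21867, with 43 symbols shared and 68 different symbols in all. The rule uses symbols and no measured value, although the set was proposed with earlier results of these data known. RNA sequencing of total RNA covered 5 stages in each species, namely oocytes, embryos of 2-4 cells, embryos of 8-16 cells, the morula, which is the compacted ball of cells, and the blastocyst, which has a cavity and separate trophectoderm and inner cell mass. Each stage of each species had 1 library, 10 in all. The stages were named by cell number or form only, and the labels gave no strain, age, culture condition, treatment or number of oocytes or embryos in a library. With 1 library per stage none of the differences given here has a replicate check, and all intervals cover counting error only.

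Splicing removes introns from transcripts. It is carried out by the spliceosome, which is built from small nuclear RNAs wrapped in proteins (snRNPs) and from many further proteins. The Sm proteins (SNRPB to SNRPG) form the ring that coats most of these RNAs, SNRPA and SNRPC sit on the U1 particle that reads the start of an intron, and the U2AF and SF3A/SF3B proteins bring the U2 particle to its end. SR proteins (SRSF) and hnRNP proteins bind RNA around exons and shift which splice sites are used, often in opposite directions, and PRPF proteins help to assemble and activate the spliceosome. Oocytes carry stored maternal RNA that is broken down as the embryo begins its own transcription. In cow that activation is known chiefly from the 8-16 cell stage, and in pig it is usually placed earlier, around the 4-cell stage.

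The deposited values resolved into whole reads per gene, with library totals from 3899291 to 14182046 reads in cow and from 3002751 to 4138616 in pig. Levels are given as reads per 1000000 reads of the library (RPM), which are not divided by gene length, so they compare 1 gene between stages and not genes with each other. Between 58 and 60 of the 62 cow members and 46 or 47 of the 49 pig members reached 1 RPM, depending on the stage, and 3 reads, the most that a count of 0 allows, came to 0.212 to 0.999 RPM. The stage labels fitted their markers: oocyte markers summed to 6098 RPM in the cow oocyte and 0.282 RPM in the cow blastocyst, and to 7239 and 23.6 RPM in pig, while blastocyst markers summed to 155 and 3978 RPM in cow and to 35.2 and 8955 RPM in pig. Markers of cumulus cells, the somatic cells around the oocyte, summed to between 42.6 and 214 RPM in cow and between 108 and 345 RPM in pig, with 1 to 5 of the 10 measured markers at 0 reads in a library. VCAN held most of the cumulus sum in the cow oocyte library, at 116 RPM, and their part in the results was not tested. Mitochondrial genes took 2.74% to 30.2% of the reads in cow, highest in the blastocyst, and 6.06% to 18.6% in pig, also highest in the blastocyst, which lowers the RPM of every other gene there. In bulk samples of this kind, a change in the number of cells of a type and a change in the RNA each cell holds cannot be told apart.

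Splicing factor and hnRNP transcripts took their largest share of the transcriptome at the 8-16 cell stage in cow and at the morula stage in pig. In cow they made up 0.831% of gene reads in the oocyte (95% Wilson interval 0.822% to 0.840%), 0.949% at 2-4 cells, 2.13% at 8-16 cells (2.12% to 2.15%), 1.68% in the morula and 1.15% in the blastocyst (1.14% to 1.15%). In pig they made up 0.615% in the oocyte (0.606% to 0.624%), 0.654% at 2-4 cells, 0.842% at 8-16 cells, 1.21% in the morula (1.20% to 1.22%) and 0.730% in the blastocyst. The highest share was 2.57 times the lowest in cow and 1.96 times in pig. Leaving mitochondrial genes out of the total kept the same stage highest, at 2.50% in cow and 1.48% in pig, and raised the cow blastocyst share to 1.82%, close to the 1.92% of its morula.

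**Figure D1:**
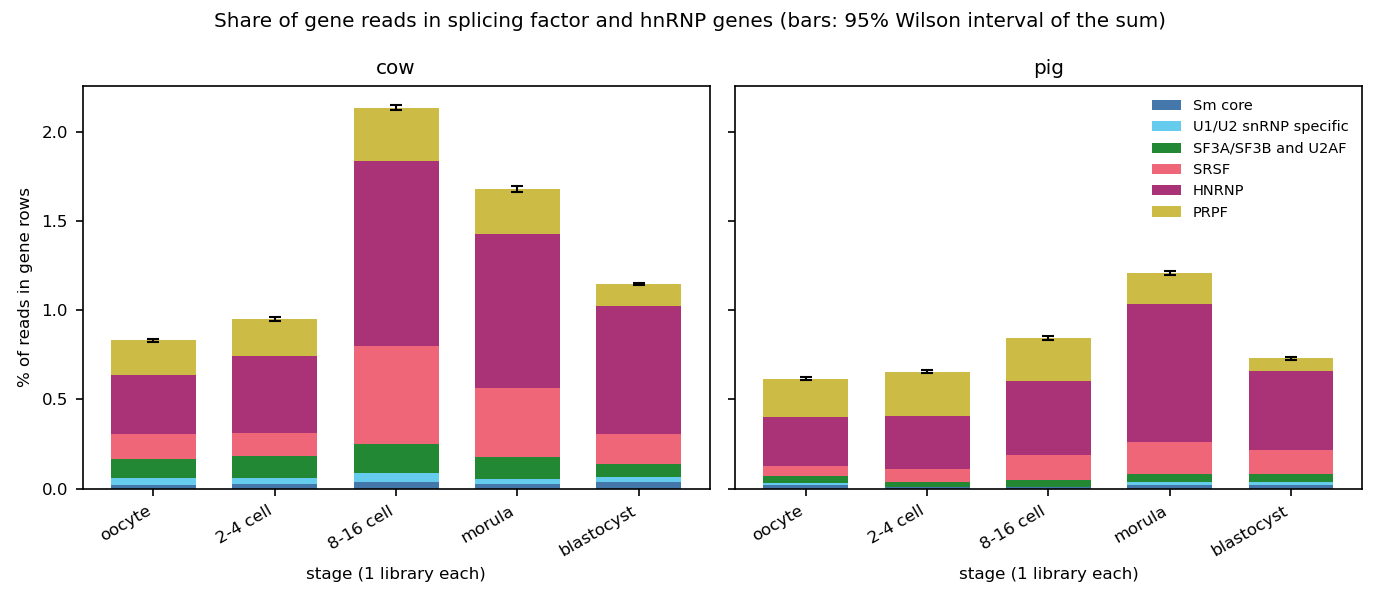
Share of all gene reads (%, vertical axis) that fell in splicing factor and hnRNP genes at each stage (1 library each), cow on the left and pig on the right; each column is stacked from the 6 groups by role, and the black bar at its top is the 95% Wilson interval of the sum. The cow sum stands at 2.13% at 8-16 cells against 0.949% at 2-4 cells, and the pig sum is highest in the morula at 1.21%.

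The hnRNP and SR protein genes carried most of the cow shift into the 8-16 cell stage, and the hnRNP genes most of the pig shift into the morula. In cow the hnRNP share went from 0.431% at 2-4 cells to 1.04% at 8-16 cells, and the SR protein share from 0.128% to 0.553%. In pig the hnRNP share went from 0.419% at 8-16 cells to 0.775% in the morula. The SR protein share went from 0.141% to 0.177% at that step, after 0.0538% in the oocyte. The PRPF group of pig ran the other way, with 0.214% in the oocyte, 0.245% at 2-4 cells and 0.0691% in the blastocyst. Few genes supplied much of the total: in pig HNRNPA2B1 gave 16.7% of the member reads in the morula and 16.8% in the blastocyst, the most of any member at both stages. In cow HNRNPU gave the most in the oocyte (10.8%) and at 2-4 cells (11.4%), and HNRNPA2B1 from the 8-16 cell stage on, with 9.31%, 8.92% and 13.1%.

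The stage at which single genes stood highest followed these shares. Of the 60 cow members with at least 1 RPM somewhere, 31 were highest at 8-16 cells, which is 51.7% against 15.5% of 14078 cow genes treated alike. A further 11 were highest at 2-4 cells, 4 in the morula, 13 in the blastocyst and 1, SNRPB2, in the oocyte. Of 47 pig members, 19 were highest in the morula (40.4% against 24.5% of 14050 genes), 16 in the blastocyst (34.0% against 32.6%), 6 in the oocyte, 5 at 8-16 cells and 1 at 2-4 cells. Scaling to non-mitochondrial reads or to the median gene left 30 and 32 cow members highest at 8-16 cells, and 19 and 16 pig members highest in the morula. The ratio of a gene's highest to its lowest stage ran from 1.82 (HNRNPH3) over a median of 5.23 to 80.5 (SRSF3) across the 57 cow members with more than 3 reads in every stage, and from 1.28 (SF3A1) over 5.34 to 28.0 (SRSF5) across 45 pig members.

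**Figure D2:**
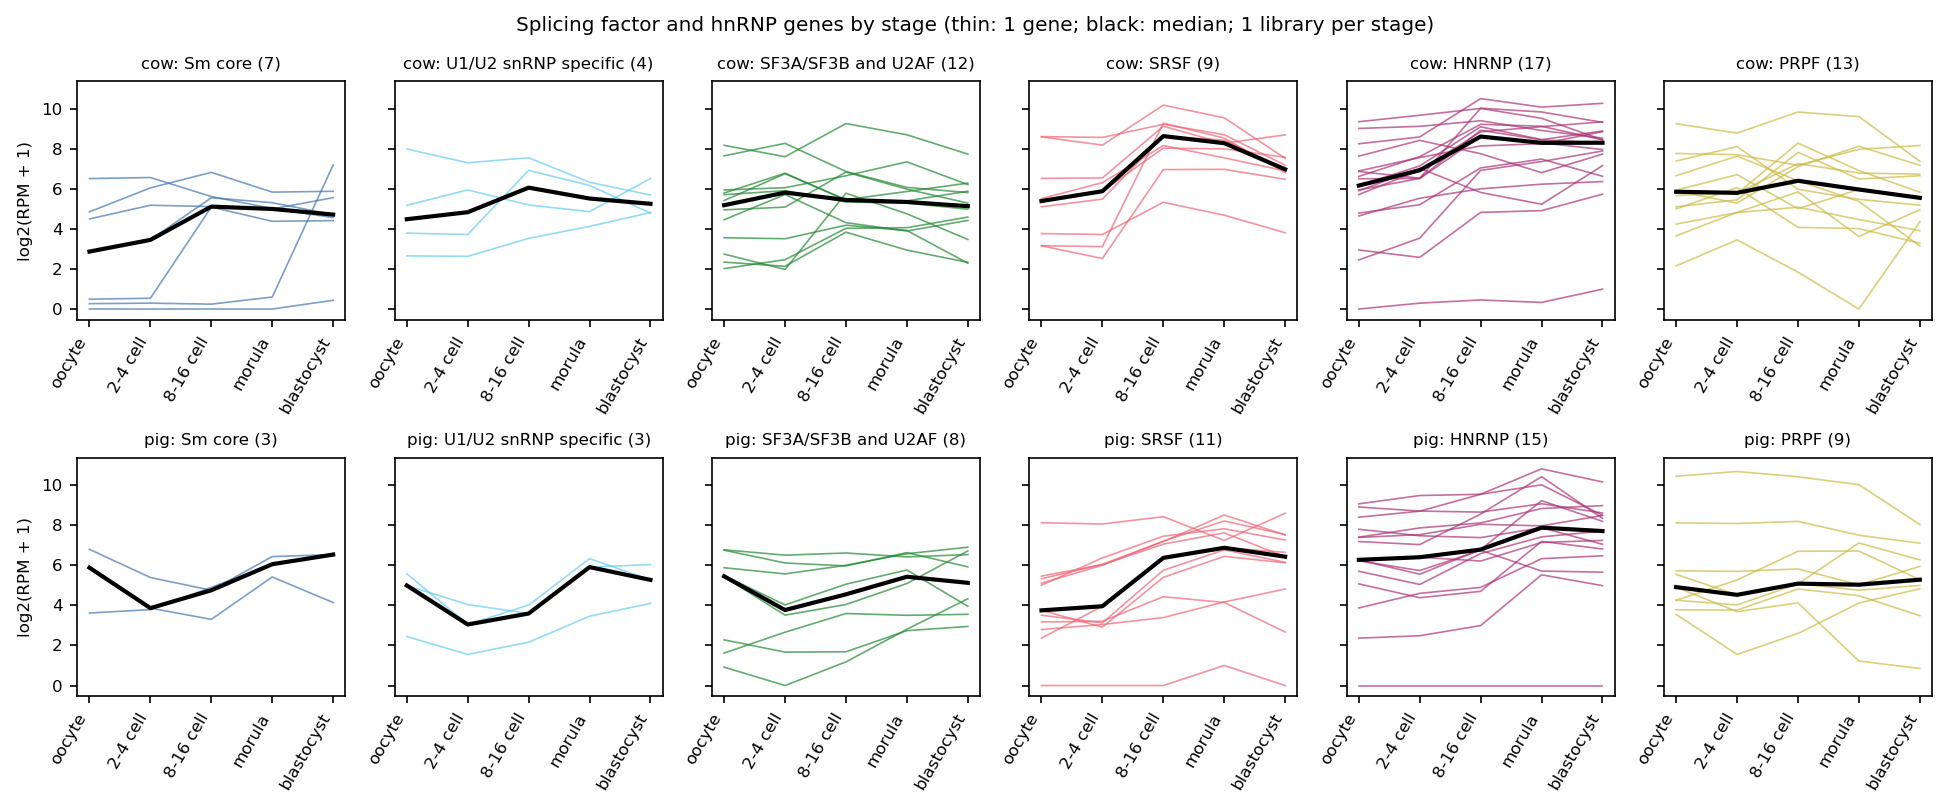
Level of each gene, as log2(RPM + 1) on the vertical axis, at each stage on the horizontal axis, with cow in the upper row, pig in the lower row and 1 panel per group by role; thin lines are single genes and the black line is their median. The median of the cow SR protein genes peaks at 8-16 cells, where 8 of 9 are highest, and that of pig in the morula, where 7 of the 10 that reached 1 RPM are highest.

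Changes between stages were taken as differences of log2(RPM + 1), a scale on which weakly expressed genes change less than their RPM do. Genes below 1 RPM in both stages were left out, and the words rose and fell are kept for an absolute difference of at least 2, or 4-fold. No cow member rose or fell from the oocyte to the 2-4 cell embryo, where 0.196% of all genes compared rose and 0.178% fell. From 2-4 cells to 8-16 cells 16 of 59 cow members rose (27.1%, against 12.6% of 12405 genes) and 1 fell (1.69%, against 14.6%). The members' median change was 1.46 on the log2 scale and that of all genes -0.44, and 44 of 59 members lay above the median of all genes.

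The later cow steps moved few members past that size. From 8-16 cells to the morula none rose, where 6.67% of all genes did, and 1 fell, where 5.15% did, with a median of -0.47 against 0.07 for all genes. From the morula to the blastocyst 2 of 60 rose and 3 fell, where 11.9% and 11.5% of all genes did, with medians of -0.36 and -0.11. Over the whole interval from oocyte to blastocyst 16 of 60 cow members rose, 26.7% against 21.8% of all genes, a share close to the background, and 3 fell, where 18.4% of all genes did. Their median was 1.06 against 0.18.

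In pig the step into the morula held the largest count. From the oocyte to 2-4 cells no pig member rose and 2 of 46 fell, where 3.26% and 2.17% of all genes did. From 2-4 cells to 8-16 cells 3 of 47 rose (6.38%, against 4.33%) and none fell (0.543% of all genes), with a median of 0.56, or 0.53 with counts of 0 set to the 3-read limit, against 0.21. From 8-16 cells to the morula 7 of 47 rose (14.9%, against 12.0%, a share near the background) and 1 fell (2.13%, against 11.3%), with a median of 0.78 against 0.18. From the morula to the blastocyst none rose and 1 fell, where 13.8% of all genes rose and 13.8% fell. From oocyte to blastocyst 13 of 47 rose (27.7%, against 26.0%) and 2 fell (4.26%, against 19.2%), with a median of 1.04 against 0.43. In both species the share that rose over the whole interval was thus near that of all genes, and the share that fell was below it.

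**Figure D3:**
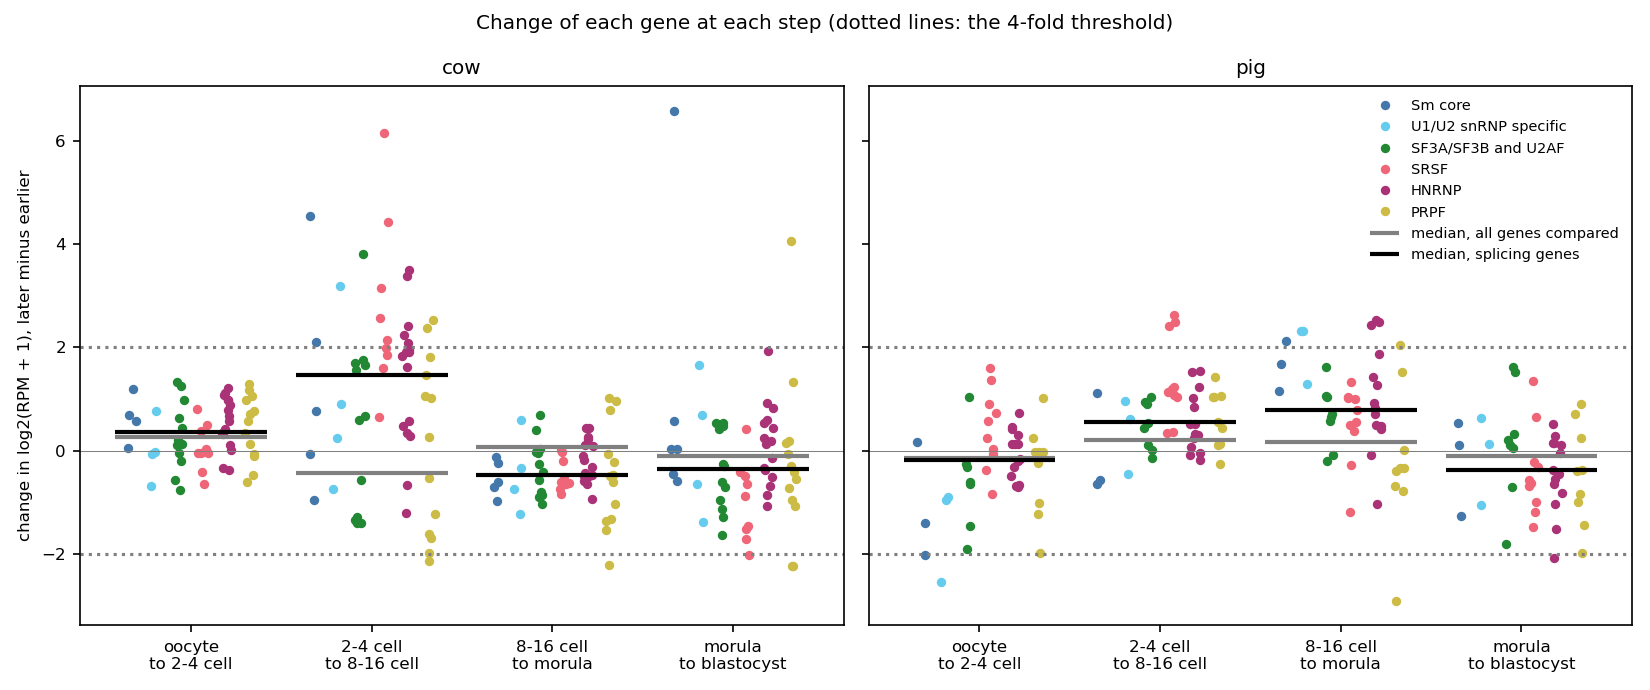
Change of each gene at each step (difference of log2(RPM + 1), later minus earlier stage, vertical axis) for cow on the left and pig on the right; each point is 1 gene, the short lines mark the median of the members and of all genes, and dotted lines mark the 4-fold size. At the cow step from 2-4 to 8-16 cells the members' median is 1.46 and that of all genes -0.44, and at the pig step from 8-16 cells to the morula the medians are 0.78 and 0.18.

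The Sm core proteins differed among themselves, with the widest change of the whole set in 1 of them. SNRPG, the symbol of a ring subunit, had 0.203 RPM in the cow oocyte, 0.225 at 2-4 cells, 0.184 at 8-16 cells, 0.513 in the morula and 144 in the blastocyst. It stood on 1 or 2 reads in each of the first 4 libraries and on 2044 in the blastocyst, a ratio to the morula of 281 (95% exact interval 77.7 to 2322). The SNRPG row spans 362 bases on chromosome 19 (12231223 to 12231584, plus strand), in the coordinates the authors' cow table gives; the row was matched by its symbol alone, and whether such a short row is the gene itself or a copy of it elsewhere in the genome was not tested. SNRPB, which also carries part of the ring, had 0.406, 0.451, 33.0, 19.7 and 20.2 RPM in the same order, so that it rose from 2 reads at 2-4 cells to 179 at 8-16 cells, a ratio of 73.1 (20.0 to 608).

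The other Sm genes of cow moved less. SNRPD1 had 27.8, 64.9, 112, 55.9 and 57.5 RPM, highest at 8-16 cells, and none of its steps reached 4-fold. SNRPD2 rose 4.62-fold (3.35 to 6.53) into the 8-16 cell stage, from 9.91 to 45.8 RPM. SNRPF ran downward from the 2-4 cell stage, with 89.9, 93.3, 47.9, 31.3 and 22.6 RPM, and its change from oocyte to blastocyst of -1.94 did not reach the size. SNRPE had 0 reads in the first 4 cow libraries and 0.353 RPM in the blastocyst, on a row of 276 bases on the X chromosome. In all 2 of the 6 cow Sm genes compared rose from oocyte to blastocyst and none fell, where 21.8% of all cow genes rose and 18.4% fell.

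Only 3 Sm genes were in the pig set, and all 3 stood higher in the morula than at 8-16 cells, while from oocyte to blastocyst 1 stood higher and 2 lower. SNRPD3 had 11.3, 12.8, 28.7, 65.3 and 95.2 RPM and rose 8.46-fold (6.04 to 12.2) from oocyte to blastocyst. SNRPF fell from 57.7 RPM in the oocyte to 13.5 at 2-4 cells, stood at 8.84 at 8-16 cells, rose to 41.6 in the morula and was at 16.6 in the blastocyst. SNRPE had 109.8, 40.8, 25.9, 85.3 and 91.4 RPM, a dip of the same form that did not reach 4-fold at any step. Scaled to the median gene no pig Sm gene fell from the oocyte to 2-4 cells or rose into the morula. The fall and the rise called for SNRPF thus depend on the scaling. SNRPB and SNRPD1 in pig were not analysed here.

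The proteins specific to the U1 and U2 particles showed that dip in pig as well. SNRPC, the U1 protein that helps to hold the start of the intron, had 46.8, 7.25, 15.2, 79.3 and 37.5 RPM in pig. It fell 6.45-fold (4.35 to 9.88) from the oocyte to 2-4 cells and rose 5.23-fold (3.82 to 7.29) from 8-16 cells to the morula. SNRPA1, the U2 protein that pairs with SNRPB2 on the RNA, had 30.8, 15.5, 11.1, 58.9 and 64.3 RPM and rose 5.33-fold (3.69 to 7.90) at the same step. SNRPA, the U1 protein that binds a stem loop of the RNA, had 4.44, 1.93, 3.47, 9.99 and 16.1 RPM in pig, with no step of 4-fold.

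In cow these genes did not share the dip. SNRPC had 12.8, 12.2, 119.7, 70.8 and 26.6 RPM, having risen 9.84-fold (7.44 to 13.2) into the 8-16 cell stage. SNRPA had 5.27, 5.18, 10.5, 16.4 and 27.1 RPM and rose 5.13-fold (3.45 to 7.96) from oocyte to blastocyst without a single step of that size. These U1 genes therefore peaked at different stages. SNRPB2 was the one cow member highest in the oocyte, with 251, 156, 186, 79.0 and 50.4 RPM, and it fell 4.98-fold (4.54 to 5.47) over the whole interval. SNRPA1 had 35.1, 60.4, 35.5, 28.0 and 90.2 RPM and passed the size nowhere.

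Genes of the U2-binding SF3A, SF3B and U2AF complexes had a median change near 0 in cow when levels were taken in RPM. From oocyte to blastocyst 1 of 12 rose and none fell (21.8% and 18.4% of all genes). The median change was 0.04, with 6 above and 6 below 0, or 0.42 when scaled to non-mitochondrial reads. SF3B1, the subunit that clamps the branch point, had 286, 192, 608, 412 and 211 RPM, highest at 8-16 cells. U2AF2, which reads the pyrimidine tract near the end of the intron, had 20.9, 51.4, 18.8, 13.8 and 20.4 RPM, highest at 2-4 cells, and its partner U2AF1, which reads the last bases of the intron, had 3.04, 4.51, 15.3, 15.6 and 23.0 RPM. U2AF1 thus rose 7.55-fold (4.51 to 13.7) from oocyte to blastocyst, which left both partners on different courses across the same libraries.

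Within SF3A and SF3B of cow, subunits of 1 complex also took different courses. SF3A1 and SF3A3 were highest at 2-4 cells: SF3A1 had 54.2, 108, 42.0, 41.0 and 57.7 RPM, and SF3A3 198, 306, 115, 65.9 and 55.1 RPM. SF3A2 was highest at 8-16 cells, with 10.8, 10.4, 17.1, 14.1 and 3.88 RPM. SF3B2 had 41.6, 107, 42.9, 57.2 and 76.6 RPM, and its change of 1.34 was the largest of any cow member from oocyte to 2-4 cells. SF3B5, a small subunit on a row of 673 bases, had 5.68, 2.93, 53.8, 25.9 and 10.1 RPM, a ratio of 18.4 (10.6 to 34.9) between 2-4 and 8-16 cells.

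In pig 1 of the 8 genes of this group rose from oocyte to blastocyst and none fell (26.0% and 19.2% of all genes). That gene was SF3B5, at 0.888, 0, 1.26, 5.99 and 19.0 RPM, with 3 reads in the oocyte and 71 in the blastocyst and a ratio of 21.4 (7.04 to 106). U2AF2 had 2.07, 5.32, 11.1, 10.3 and 10.7 RPM, a change of 1.93 that did not reach the size. Scaled to non-mitochondrial reads its change was 2.11, which did reach it. SF3A1 was the steadiest member of the pig set, at 108, 89.6, 96.6, 84.3 and 91.4 RPM. SF3B2 went from 33.0 RPM in the morula to 104 in the blastocyst, the largest upward difference of the set at that step (1.62), and SF3B6, whose product lies beside the branch point, from 53.3 to 14.5 RPM.

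SR protein genes stood out at the cow step into the 8-16 cell stage. In cow all 9 were higher at 8-16 cells than at 2-4 cells, where 41.9% of all cow genes were. Of the 9, 5 rose, where 12.6% of all genes did, and their median change was 2.15 against -0.44. Scaled to non-mitochondrial reads or to the median gene 7 rose, where 15.1% and 15.3% of all genes did. SRSF3, the smallest SR protein and a carrier of mRNA out of the nucleus, had 7.91 RPM in the oocyte, 7.66 at 2-4 cells, 616 at 8-16 cells, 367 in the morula and 111 in the blastocyst. The oocyte and 2-4 cell libraries were at the same low level and the later 3 were all far above it; the ratio between 2-4 and 8-16 cells was 80.5 (57.5 to 116), the largest of the set between libraries with more than 3 reads. SRSF3 lies on chromosome 23 (10481198 to 10487651, plus strand) in the authors' cow coordinates and overlapped no other row.

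SRSF6, an SR protein with a pair of RNA binding domains, had 7.91, 4.73, 123, 124 and 87.7 RPM in cow and rose 26.0-fold (16.9 to 42.3) at the same step. SRSF2, which binds exon enhancers, had 90.5, 91.9, 553, 308 and 410.2 RPM and rose 6.02-fold (5.42 to 6.69). SRSF11 rose 9.00-fold (7.77 to 10.5), from 43.7 to 393 RPM, and SRSF7 rose 4.49-fold (3.93 to 5.15), from 57.7 to 259 RPM. After the 8-16 cell stage these genes parted: SRSF2, SRSF3, SRSF6 and SRSF7 were still more than 4-fold above the oocyte in the blastocyst, whereas SRSF11 was at 124 RPM there and 33.3 RPM in the oocyte.

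SRSF1, the founding member of the family, peaked with the others in cow and fell after the morula. It had 383, 288, 1150.2, 742 and 182 RPM. Its change of 1.99 into the 8-16 cell stage lay just under the size. From morula to blastocyst it changed by -2.02, a 4.07-fold fall (3.86 to 4.29). Scaled to non-mitochondrial reads or to the median gene no cow SR gene fell at that step, so this call depends on the scaling. SRSF10, a splicing repressor in its unphosphorylated form, had 387, 376, 592, 413 and 143 RPM and reached the size at no step. SRSF1 and SRSF10 were the cow SR genes that stood lower in the blastocyst than in the oocyte, with changes of -1.07 and -1.43.

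**Figure D4:**
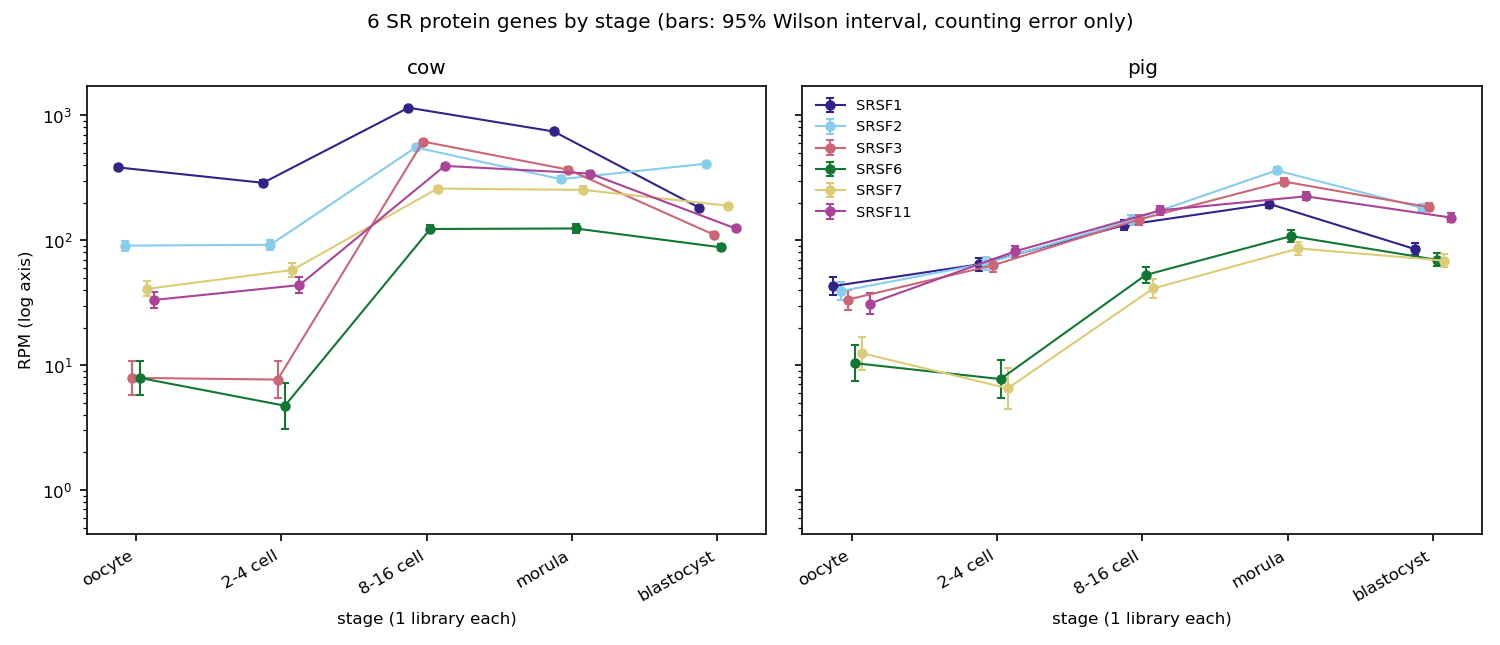
Level in RPM (log axis) of 6 SR protein genes at each stage, cow on the left and pig on the right, 1 library per stage; bars are 95% Wilson intervals. In cow SRSF3 stands at 7.66 RPM at 2-4 cells and 616 at 8-16 cells, and in pig it stands at 33.5, 63.1, 146, 295 and 184 RPM from oocyte to blastocyst.

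The pig SR genes reached as large a change over the whole interval in smaller steps. From oocyte to blastocyst 7 of 10 rose and none fell, where 26.0% of all pig genes rose and 19.2% fell, with a median of 2.22. In cow 4 of 9 rose and none fell over this interval, with a median of 1.87. All 10 pig genes were higher at 8-16 cells than at 2-4 cells, where 61.2% of all pig genes were. Their median was 1.17 against 0.21 for all genes, and 3 rose, where 4.33% of all genes did. SRSF5, an SR protein gene known to respond quickly to growth signals, had 4.14, 14.5, 81.5, 116 and 98.9 RPM and rose 5.62-fold (4.23 to 7.57) from 2-4 to 8-16 cells, with a change of 4.28 from oocyte to blastocyst, the largest upward one of the pig set. SRSF6 had 10.4, 7.73, 52.7, 108 and 69.7 RPM and rose 6.82-fold (4.65 to 10.3) from 2-4 to 8-16 cells. SRSF7 rose 6.29-fold (4.13 to 9.91) at that step, from 6.52 to 41.1 RPM, and these 3 genes were the ones that rose there.

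The other pig SR genes were highest in the morula for the most part. SRSF3 had 33.5, 63.1, 146, 295 and 184 RPM, each stage to the morula above the one before with no step of 4-fold, and rose 5.49-fold (4.49 to 6.76) from oocyte to blastocyst. SRSF2 followed the same form with 39.1, 65.2, 144, 362 and 181 RPM, and SRSF1 with 42.9, 64.0, 132, 195 and 85.0 RPM, the last without reaching the size. SRSF12 was the pig SR gene that stood lower in the blastocyst than in the oocyte, at 7.99, 8.22, 20.5, 16.7 and 5.36 RPM. SRSF8 had 0.999 RPM in the morula and 0 reads in the other 4 libraries, on a row of 597 bases on the X chromosome.

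Among the hnRNP genes of cow, 14 of 16 were higher at 8-16 cells than at 2-4 cells, where 41.9% of all genes were. The hnRNP median was 1.87, against -0.44 for all genes. At this step 5 rose, where 12.6% of all genes did: HNRNPH1, HNRNPAB, HNRNPLL, HNRNPDL and HNRNPK. Scaled to non-mitochondrial reads or to the median gene 9 rose, where 15.1% and 15.3% of all genes did. From oocyte to blastocyst 7 of the 16 rose and none fell, where 21.8% of all genes rose and 18.4% fell. Scaled to non-mitochondrial reads 12 rose over this interval, where 27.7% of all genes did. HNRNPAB, an RNA binding protein of the A/B type, had 4.46, 10.6, 119.7, 163 and 235 RPM, higher at every stage than at the one before. Its ratio of blastocyst to oocyte was 52.6 (34.7 to 84.0). HNRNPA1, which antagonises SR proteins at many exons, also stood higher at every stage than at the one before, with 51.3, 120.3, 457, 546 and 644 RPM, and rose 12.6-fold (11.1 to 14.3) over the whole interval.

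HNRNPA2B1, a close relative of HNRNPA1, had 302, 382, 1442, 1074 and 1224 RPM and rose 4.06-fold (3.85 to 4.28) from oocyte to blastocyst. HNRNPH1, which binds runs of guanine, had 115, 91.0, 1035, 908 and 633 RPM, with a rise of 11.4-fold (10.3 to 12.6) into the 8-16 cell stage. HNRNPK, which binds cytosine-rich RNA, had 60.4, 90.3, 388, 312 and 247 RPM and rose 4.29-fold (3.85 to 4.79) at that step. HNRNPU and HNRNPH3 took another course: HNRNPU, which also binds chromatin, had 648, 811, 1026, 729 and 346 RPM, and HNRNPH3 513, 552, 670.1, 478 and 368 RPM. Both were already high in the oocyte and were lowest in the blastocyst, with changes of -0.90 and -0.48. HNRNPA0 stayed between 0 reads and 0.987 RPM in cow.

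In pig 3 of 14 hnRNP genes rose from oocyte to blastocyst, HNRNPLL, HNRNPH2 and HNRNPK, and none fell, where 26.0% of all genes rose and 19.2% fell, so the share that rose was not above the background. Their largest median change between neighbouring stages lay between 8-16 cells and the morula, at 0.88 against 0.18 for all genes. There 12 of 14 were higher in the morula, as were 53.7% of all genes, and 3 rose, where 12.0% of all genes did. HNRNPLL, known for switching exons in activated lymphocytes, had 4.14, 4.59, 6.95, 45.0 and 30.6 RPM and rose 6.47-fold (4.10 to 10.7) at that step, the largest upward difference there in the set. HNRNPM rose 5.46-fold (4.86 to 6.14), from 109 to 594 RPM, and HNRNPR rose 5.81-fold (4.56 to 7.48), from 25.0 to 145 RPM.

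HNRNPH1 of pig had a single sharp maximum, with 144, 129.5, 374, 1363 and 322 RPM, and fell 4.23-fold (3.97 to 4.52) from morula to blastocyst, the one member to fall at that step. HNRNPA2B1 had 335, 413, 742, 1790.4 and 1139 RPM, a change of 1.76 from oocyte to blastocyst that did not reach the size. HNRNPK and HNRNPH2 were instead highest in the blastocyst. HNRNPK had 50.9, 31.9, 94.8, 169.5 and 208 RPM and rose 4.08-fold (3.45 to 4.84). HNRNPH2, on the X chromosome, had 13.6, 23.2, 28.7, 79.3 and 87.7 RPM. HNRNPU had 533, 711, 743, 1030.1 and 359 RPM, lowest in the blastocyst as in cow. HNRNPF had 0 reads in all 5 pig libraries, on a row on the X chromosome, whereas the cow row lies on chromosome 28. The pig row was matched by its symbol alone, and whether it is the HNRNPF gene itself was not tested. HNRNPC of both species and HNRNPA1 of pig were not analysed here.

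The PRPF genes held falls as well as rises. In cow 2 of 13 fell from oocyte to blastocyst and 1 rose, where 18.4% and 21.8% of all genes did, and the median was -0.02, or 0.37 when scaled to non-mitochondrial reads. PRPF18, which acts in the second catalytic step of splicing, had 99.4, 196, 83.2, 40.3 and 7.83 RPM. It fell 12.7-fold (10.3 to 15.7) from oocyte to blastocyst and was lower at every stage after the 2-4 cell stage than at the one before. PRPF4, a protein of the U4/U6 particle, had 166, 274, 61.7, 43.3 and 35.3 RPM. It was the one member to fall from 2-4 to 8-16 cells, by a factor of 4.44 (3.93 to 5.02). Scaled to non-mitochondrial reads or to the median gene no member fell at that step, so this call depends on the scaling.

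Other PRPF genes of cow peaked with the SR genes. PRPF38A and PRPF38B, which act when the spliceosome is activated, rose 5.83-fold (5.08 to 6.71) and 5.27-fold (4.51 to 6.17) into the 8-16 cell stage, to 309 and 224 RPM. PRPF38A stood at 55.7 RPM in the blastocyst, beside 56.6 in the oocyte. PRPF19, the ubiquitin ligase at the centre of the complex named after it, had 11.6, 27.3, 56.3, 11.3 and 29.8 RPM and was the one member to fall from 8-16 cells to the morula, by a factor of 4.99 (3.63 to 7.01). PRPF39, a U1-associated protein, had 58.2, 37.8, 136, 277 and 143 RPM, and PRPF8, the scaffold at the catalytic centre, stayed between 143 and 284 RPM with no step of 4-fold.

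PRPF40B, a protein associated with the U1 particle, took opposite courses in the species. In cow it had 3.45, 9.91, 2.58, 0 and 19.4 RPM. The cow morula held no PRPF40B read and the blastocyst 275, which makes the blastocyst at least 25.2-fold higher, and the ratio of blastocyst to oocyte was 5.62 (3.45 to 9.79).

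PRPF40B of pig ran the other way, with 29.0, 11.8, 16.4, 1.33 and 0.804 RPM. It fell 12.3-fold (4.54 to 46.9) from 8-16 cells to the morula, and 98 reads in the oocyte stood against 3 in the blastocyst, a ratio of 36.1 (12.0 to 178). In the authors' pig coordinates PRPF40B (chromosome 5, 15570454 to 15596650, plus strand) overlaps FMNL3 on the other strand, and the cow row (chromosome 5, 30373288 to 30387042, minus strand) overlaps no row. Strand handling in counting is not given in the sources used here, so reads of such a pair cannot be told apart.

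PRPF39 of pig had 18.1, 15.2, 32.5, 137 and 75.9 RPM. It rose 4.22-fold (3.39 to 5.29) into the morula and was 4.20-fold (3.18 to 5.64) above the oocyte in the blastocyst. Scaled to the median gene no pig PRPF gene rose at that step or over the whole interval, so both calls depend on the scaling. PRPF19 had 12.7, 12.6, 27.2, 21.3 and 10.2 RPM. PRPF6, a bridging protein of the particle that brings U4, U5 and U6 together, had 10.7, 1.93, 5.05, 16.3 and 27.3 RPM, a dip at 2-4 cells with a change of -1.99. PRPF8, SF3B1 and U2AF1 of pig were not analysed here.

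Of the 41 symbols compared in both species from oocyte to blastocyst, 6 rose in both: SRSF2, SRSF3, SRSF6, SRSF7, HNRNPK and HNRNPLL. That is 14.6%, against 11.2% of 8566 shared symbols. None fell in both, where 8.49% of shared symbols did, and 1, PRPF40B, was called in opposite directions (2.44% against 3.04%). The changes had the same sign in 27 (65.9% against 68.5%), and Spearman's rho across these genes was 0.58, with 0.49 across all shared symbols; genes are not independent replicates and share their 4 libraries. Agreement between the species over this interval was thus about that of other genes.

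At the step from 2-4 to 8-16 cells 2 SR genes moved together in both species. SRSF6 and SRSF7 rose in both (4.88% of 41, against 1.31% of 8195 shared symbols), 29 of 41 changes had the same sign (70.7% against 52.5%), and rho was 0.56 against 0.18. From the oocyte to 2-4 cells 14 of 40 had the same sign (35.0% against 45.0%), with rho at -0.26 against -0.05. With the cow step from 2-4 to 8-16 cells beside the pig step from 8-16 cells to the morula, HNRNPLL and SNRPC rose in both (4.88% against 2.73% of shared symbols), 29 of 41 had the same sign (70.7% against 59.5%) and rho was 0.32 against 0.29. No test of these differences was possible with 1 library per stage.

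**Figure D5:**
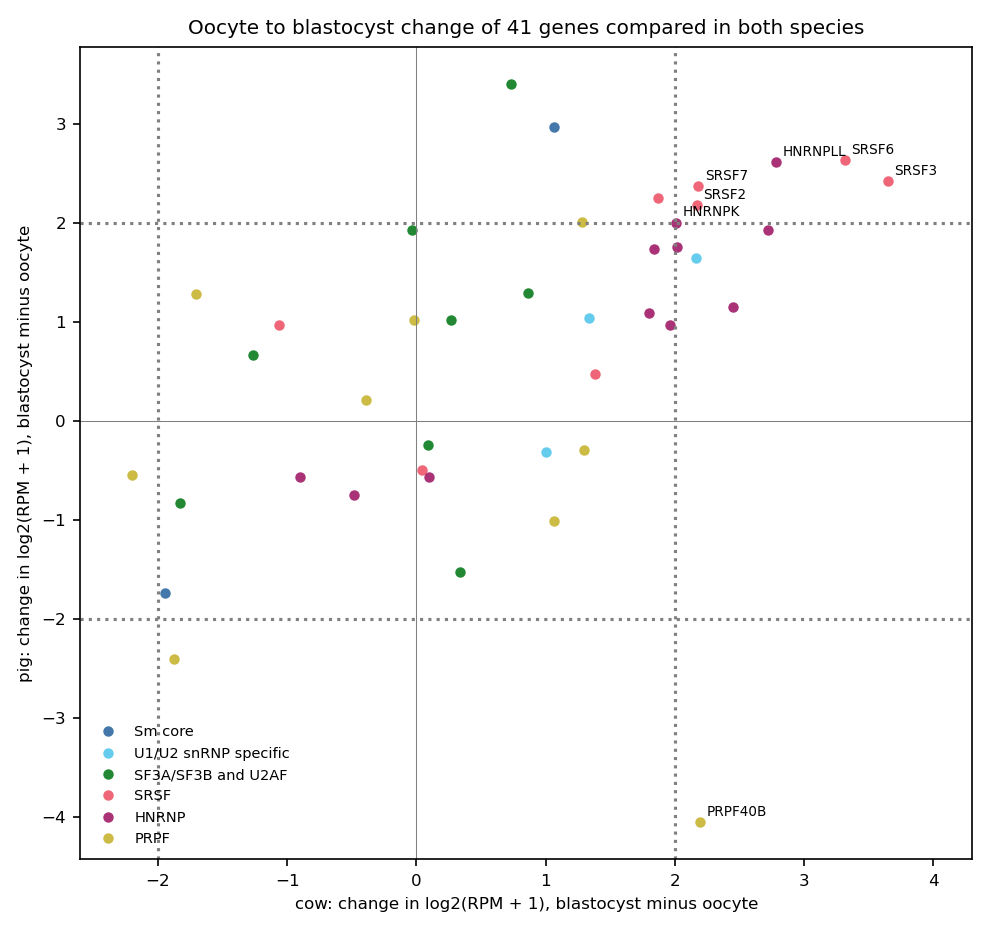
Change from oocyte to blastocyst as a difference of log2(RPM + 1) in cow (horizontal axis) and pig (vertical axis) for the 41 genes compared in both species; each point is 1 gene, coloured by role, dotted lines mark the 4-fold size, and genes past it in both species are named. The 6 genes in the upper right rose in both species, and PRPF40B, at 2.20 in cow and -4.06 in pig, stands alone in the lower right.

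Other genes of the pathway, taken from lists of known factors, showed mixed changes from oocyte to blastocyst, an interval over which 21.8% of all cow genes rose and 18.4% fell, and 26.0% and 19.2% of all pig genes. Of 57 other spliceosome genes in cow 11 rose and 1 fell, with a median of 0.80, and of 47 in pig 10 rose and 3 fell, with a median of 0.04, so that in both species the rises were not above the background. SNRNP70, the third U1 protein beside SNRPA and SNRPC, had the largest upward difference of that list in cow, from 1.01 to 38.7 RPM, and RNPC3 of the minor spliceosome the largest downward one in pig, from 332 to 24.7 RPM. For the machinery that loads Sm rings, 2 of 16 rose and 1 fell in cow, and 3 of 14 rose and 3 fell in pig. WDR77, a partner of the enzyme that methylates Sm proteins, rose in both (8.93 to 76.4 RPM in cow, 7.99 to 56.6 in pig), and DDX20 of the SMN complex fell in both (274 to 49.6 and 101 to 16.1 RPM).

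Of the kinases and importers of SR proteins, 1 of 9 rose and 1 fell in cow, with a median of -0.77, and 2 of 10 rose and none fell in pig, with a median of -0.48. SRPK1, the main cytoplasmic SR protein kinase, fell in cow from 654 to 91.4 RPM, and TNPO3, which carries SR proteins into the nucleus, rose from 5.07 to 41.1 RPM. At the cow step from 2-4 to 8-16 cells 2 of 9 rose, TNPO3 (7.66 to 209 RPM) and CLK1, and 2 fell, SRPK2 (235 to 21.7 RPM) and DYRK1A. Among other splicing regulators 9 of 32 rose and 2 fell in cow, and 9 of 25 rose and 3 fell in pig; RBM47, an RNA binding protein of epithelia, had the largest upward difference in both, reaching 65.8 and 349 RPM in the blastocyst. At the cow step from 2-4 to 8-16 cells, where 12.6% of all genes rose and 14.6% fell, 12 of 31 of these regulators rose and 1, MBNL2, fell (80.9 to 15.8 RPM), with a median of 1.51. TRA2B, an SR-like protein, went from 5.18 to 675 RPM there. At the same step 12 of 57 other spliceosome genes rose and 4 fell (median 0.29), 2 of 16 Sm ring assembly genes rose and none fell (median -0.07), and of 13 exon junction genes none rose and 2 fell (median -0.29). The exon junction complex, which marks spliced junctions, had 3 of 13 risen and 2 fallen in cow, and none of 11 risen and 5 fallen in pig; the cow counts lie near the shares of all genes.

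The members were spread over 21 chromosomes in cow and 16 in pig. In each species 4 pairs of members lay within 1 Mb of each other. HNRNPLL and SRSF7 formed such a pair in both, 138 kb apart on cow chromosome 11 and 142 kb apart on pig chromosome 3, and both genes rose from oocyte to blastocyst in both species, although in cow SRSF7 was highest at 8-16 cells and HNRNPLL in the blastocyst. SNRPA and HNRNPUL1 formed the other shared pair, and their stages of highest level differed in both species. As many as 21 pig members overlapped another row, among them SRSF2, SRSF3, SRSF4, SRSF5, SRSF9, HNRNPA2B1, HNRNPH1, HNRNPM and HNRNPU, all on the other strand. In cow 2 did, SRSF2 and PRPF6. How reads in those overlaps were assigned was not tested.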

How the data were processed

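RNA of 10 libraries was analysed, 1 per stage in each of 2 species. A PicoPure kit for the total RNA, Ovation RNA-Seq amplification to cDNA and a library kit with 8 PCR cycles were used, per the labels' protocols. The submitters' processing notes name Trim Galore 0.6.4, HISAT2 2.1.0 and the genome builds UMD3.1 and Sscrofa11.1; the counting method, strand handling and duplicate removal are not given in the sources used here. The deposited values, in 1 table per species, were taken as log2 RPM from the values themselves, since the headers do not name the unit. In each column 1 read is the second lowest value, and at least 99.97% of values above 0 reads were whole reads within 0.02 read. The authors' tables write 0 reads as 0.9 of a read, which was kept for differences; levels print it as 0.

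Changes were differences of log2(RPM + 1) over all rows not below 1 RPM in both stages, called at 2 or more. No test against replicates was possible. Intervals are 95% Wilson (levels, shares) or exact conditional binomial (ratios). Reads are PCR copies without molecular identifiers, so intervals cover counting error only. With the floor at 3 reads, a ratio against 0 reads is a lower bound. Cow and pig were paired by identical symbols and scaled separately by the authors. The calculation was tested on simulated data. No column of another series was in the tables (0).

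The members, the pathway and marker lists and the tests were chosen with earlier results of these data known. Genes named are, by role and species, the 2 with the largest rise and the 2 with the largest fall from oocyte to blastocyst among those reaching 10 RPM, the extremes of each step, members called in opposite directions or under 1 RPM throughout, and 14 genes set by role; the other members that passed the 4-fold size, and PRPF38A, SRSF9 and the overlapping genes, were named after their values were seen. Of the pathway lists, the genes with the largest rise or fall are named. Python 3.11.15, numpy 2.4.6, pandas 2.3.3, scipy 1.17.1 and matplotlib 3.10.9 were used. The values of 1 gene that the rule for naming would give are not reported here.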

Additional observations from a re-analysis of the deposited data

Results flagged for a closer look

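PRPF40B was the one gene of the set whose change passed 4-fold in opposite directions in the 2 species: its change from oocyte to blastocyst on the log2(RPM + 1) scale was 2.20 in cow and -4.06 in pig. The difference was not tested, since each stage had 1 library. The counts behind it were 17 reads in the cow oocyte, 275 in the cow blastocyst, 98 in the pig oocyte and 3 in the pig blastocyst. The pig row overlaps FMNL3 on the other strand, and the part of that overlap in the count was not tested.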

How the results depend on the processing

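Over 10 alternatives, 98 of 120 counts of changed members stayed within 1.5 times their main value. Setting no minimum level, a minimum of 5 RPM, summing repeated symbols, requiring Wilson intervals not to overlap, or setting 0 reads to 0 RPM (chosen after seeing the data) gave the main counts. A threshold of 1 raised the cow counts in stage order to 9, 42, 8 and 17 (main 0, 17, 1 and 5) and the pig counts to 12, 18, 24 and 13 (main 2, 3, 8 and 1). From oocyte to blastocyst it gave 43 in cow and 31 in pig (main 19 and 15), with 18 called the same way and 3 in opposite ways (main 6 and 1). A pseudocount of 5 RPM left 0 cow members from 8-16 cells to the morula, 3 from morula to blastocyst, 1 pig member from oocyte to 2-4 cells and 4 from 8-16 cells to the morula, and 0 called in opposite ways; one of 0.1 RPM gave 2 in cow from 8-16 cells to the morula. For pig, scaling to non-mitochondrial reads gave 1 from oocyte to 2-4 cells and 2 from morula to blastocyst, and median scaling 1 and 0. From morula to blastocyst in cow the split was 2 higher and 3 lower, against 3 and 1 on non-mitochondrial scaling and 3 and 2 on median scaling; from oocyte to blastocyst it was 16 and 3, against 23 and 1 on non-mitochondrial scaling. These scalings moved the median of all cow genes by 0.42 from oocyte to blastocyst (non-mitochondrial) and by 0.33 from 2-4 to 8-16 cells (median scaling), where 25 cow members rose and none fell. Among the genes picked by the naming rule, none reversed from oocyte to blastocyst under the 4 scalings and pseudocounts tried; single steps and other genes were not checked in this way. PRPF4 and SNRPB2 of cow fell short of 4-fold on non-mitochondrial scaling, and HNRNPK and PRPF39 of pig on median scaling, over the whole interval. With a pseudocount of 5 RPM HNRNPK, PRPF40B, SNRPA and U2AF1 of cow and HNRNPK, HNRNPLL and PRPF39 of pig fell short of it. U2AF2 of pig instead passed 4-fold on non-mitochondrial scaling (2.11) and with a pseudocount of 0.1 RPM (2.32). For all pig members the median from oocyte to 2-4 cells, -0.18, was 0.07 on median scaling. The cause of these shifts was not tested beyond the changed setting. No paired analysis was possible because each group had 1 library. Genes of a few reads, such as SNRPG, SNRPB and SF3B5 at their low stages, are limited by depth.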
